A study of Homo sapiens with 6 samples.

Results

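The expression of 10 feedback genes of growth factor signaling was examined in KYSE150, a long-established cell line from human squamous carcinoma of the esophagus. The genes were taken by name: the Sprouty genes SPRY1, SPRY2 and SPRY4, the Sprouty-related genes SPRED1, SPRED2 and SPRED3, the PEA3-type ETS transcription factor genes ETV1, ETV4 and ETV5, and PHLDA1. They are 10 of 67140 gene identifiers in the count table, and all 10 were among the 19254 genes that passed the filter on low counts. The study targeted the long noncoding RNA AC007128.1 with a short hairpin RNA, and poly-A RNA was sequenced from 3 samples carrying a control hairpin (shCtrl) and 3 carrying one against the lncRNA (shAC007128.1). The authors' methods describe stable lines made with lentivirus and puromycin, and KYSE150 cells grown in RPMI medium with fetal bovine serum. They do not state separately that the control hairpin had the same vector and selection. Each group rests on 1 hairpin in 1 cell line. Neither the labels nor the methods say whether the 3 samples were separate cultures, so every p-value measures only the spread between these samples, which may be technical.

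Receptor tyrosine kinases such as EGFR and the FGF receptors activate RAS, which passes the signal through RAF and MEK to the kinase ERK. Active ERK induces a set of genes whose products restrain or transmit the same signal, and the genes described here belong to that set. Sprouty and SPRED proteins are membrane-associated inhibitors with a shared cysteine-rich domain, and SPRED proteins bring neurofibromin, which switches RAS off, to the membrane. ETV1, ETV4 and ETV5 are DNA-binding factors downstream of FGF and EGF receptors, and their genes are held down by the repressor CIC until ERK relieves it. PHLDA1, a protein with a pleckstrin homology-like domain, is widely used as a readout of ERK output.

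The sequence that separates the groups is the stem of the shAC007128.1 hairpin, 5′ to 3′, in lower case throughout because no part of it is singled out.
shAC007128.1 stem: ccacaagtcctggcacatt
The stem is 19 bases long. The whole stem occurred in 1 of 62700 canonical GENCODE v44 transcripts, that of AC007128.1, and thus in no canonical transcript of the 10 genes. Other transcripts and shorter matches were not examined.

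The stretches upstream of the genes are shown because the 10 genes did not move together, and short motifs of transcription factors can be looked for there. RefSeq promoter windows (GRCh38.p14) were at hand for 8 of the 10 genes, in 18 windows of 250 bases before a transcript start. ETV4 and ETV5 had no entry. The motifs, chosen after the values were seen and searched on both strands, were the CIC octamer TGAATGNA, an ETS site CCGGAAG, an AP-1 site TGANTCA, the cyclic AMP element TGACGTCA and an EGR site GCGTGGGCG. None of these letters overlap one another in the matches found. In the lines below capitals mark the motif, with 10 bases on each side, read 5′ to 3′ on the strand of the gene.
SPRED3 CIC octamer, chr19:38389589-38389616, plus strand: ttgatttttgTGAATGAAatgctctctg
SPRED3 AP-1 site, chr19:38389721-38389747, plus strand: cgttgctgggTGACTCAgtgagctttg
ETV1 CIC octamer, chr7:13991533-13991560, minus strand: cggaattttgTGAATGGAgacgaaaggt
SPRY1 ETS site, chr4:123398309-123398335, plus strand: ccctccgcagCCGGAAGggggccgcgg
The octamer of SPRED3 lay 192 to 185 bases before its transcript start and that of ETV1 125 to 118 bases before. The AP-1 letters of SPRED3 lay 60 to 54 bases and the ETS letters of SPRY1 67 to 61 bases before theirs. GENCODE v44 places all 250 bases of that SPRY1 window, 126 bases of that SPRED3 window and 0 bases of that ETV1 window in exons. Among 35116 windows of the same length, 3.2% held the CIC octamer, 8.5% the ETS site, 6.6% the AP-1 site, 1.6% the cyclic AMP element and 0.72% the EGR site. Whether the windows of these genes hold more matches than such shares was not tested, nor was any link of a match to a gene's direction. The windows of PHLDA1, SPRED1, SPRED2, SPRY2 and SPRY4 held none of these letters, which says nothing about the factors themselves.

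Total counts were 65140326 to 78610457 in shCtrl samples and 55764405 to 60158244 in shAC007128.1 samples, so every shAC007128.1 library was the smaller. With all libraries thinned to one depth, each of the 10 genes kept its direction and its side of the test's threshold. Squamous epithelial markers summed to 2590 to 2640 CPM (counts scaled to library size with the TMM factors) in shCtrl and 3850 to 4330 CPM in shAC007128.1 samples, with 8 of 12 markers higher and 1 lower by the test used below. Fibroblast markers summed to 14.8 to 15.9 CPM and 20.8 to 23.6 CPM, with both tested markers of 6 higher, and immune and endothelial markers to 3.16 to 3.64 CPM and 0.836 to 3.24 CPM, with none of the 4 tested passing in edgeR (VWF had the lowest unadjusted p, 0.04975). The part of these markers in the results was not tested, and in bulk RNA fewer cells of a type and less RNA per cell cannot be told apart. The target itself, AC007128.1 (ENSG00000229970), was counted 69, 33 and 53 times in the controls and 18, 37 and 15 times in the shAC007128.1 samples, by replicate 1, 2 and 3. Replicate 2 of shAC007128.1, in the smallest library, lay above replicate 2 of shCtrl, in the largest, so the target's level does not separate the labels, and the groups are named by label throughout. A difference was not detected (log2 fold change -0.77, SE (standard error) 0.51, edgeR adjusted p = 0.271). AC007128.1 shares 782 of its 1853 exonic bases with other genes, among them ICA1-AS1 on the same strand. How shared reads were counted is not given, so these low counts are an uncertain measure of the target. The authors report from qPCR that the hairpin reduced AC007128.1.

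Compared with shCtrl, the 10 genes went both ways. PHLDA1 and SPRED3 fell to 52.7% and 46.0% of control and SPRY2 and SPRY4 fell less, whereas SPRY1, SPRED1, SPRED2 and ETV5 rose. ETV4 and ETV1 did not pass the test. A gene passed where edgeR's quasi-likelihood test, adjusted by Benjamini-Hochberg over all genes, gave a p no higher than 0.05, and was called where its fold was also at least 2. Thus 4 of 10 passed lower and 4 higher. Among all genes tested 40.8% passed, 19.8% lower and 21.0% higher. SPRED3 was the 1 gene called lower and 0 of 10 were called higher by edgeR, against 10.1% and 5.57% of all genes. SPRY1 was past the fold limit and called higher in 4 alternatives, among them limma-voom and the fits without shCtrl replicate 3 or shAC007128.1 replicate 2. Without shCtrl replicate 1, 2 or 3, 2 of the 10 genes passed lower, where 14.4%, 14.3% and 14.7% of all genes did. Without shCtrl replicate 1 or 2, 2 of the 10 passed higher, where 15.8% and 15.6% of all genes did. The median log2 fold change of the 10 genes was 0.264 and that of all genes tested -0.024. For 9 of the 10 genes the groups did not overlap, as for 55.2% of all genes. For each of these 9 genes the two-sided exact permutation p over samples was 0.1, the smallest that 3 samples against 3 allow.

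**Figure D1:**
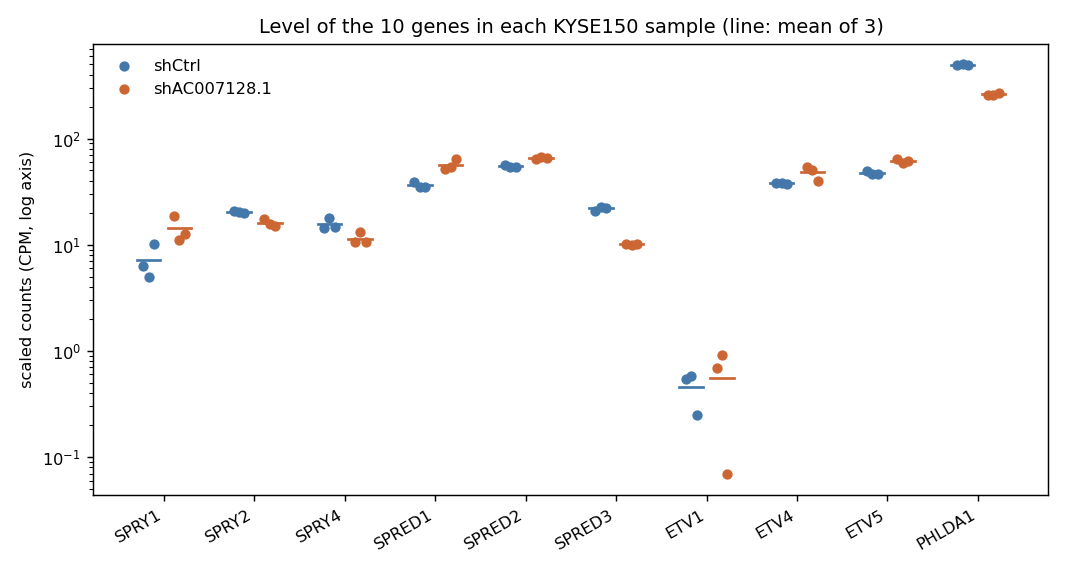
Level of each gene in every sample, in scaled CPM on a log axis, with blue points for shCtrl, orange points for shAC007128.1 and a line at the mean of 3. The groups stand apart for 9 genes and overlap for ETV1, whose shAC007128.1 points run from 0.06881 to 0.9103 CPM.

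The Sprouty genes split, with SPRY1 higher and SPRY2 and SPRY4 lower. Sprouty proteins bind adaptors such as GRB2 and the ubiquitin ligase CBL and damp RAS activation. SPRY1 (ENSG00000164056) lies on the plus strand of hg38 at chr4:123396795-123403760. It measured 6.355, 4.923 and 10.23 CPM in shCtrl replicates 1, 2 and 3 and 18.79, 11.18 and 12.7 CPM in shAC007128.1 replicates 1, 2 and 3. The highest control lay just under the lowest shAC007128.1 sample, and within both groups the samples spread widely. Its mean level went from 7.169 ± 2.745 CPM (SD, n = 3) to 14.22 ± 4.026 CPM (SD, n = 3). The log2 fold change was 0.99 (SE 0.31, edgeR adjusted p = 0.0379), which is just under the fold limit.

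SPRY2, an inhibitor that also slows the loss of EGFR from the membrane by binding CBL, showed a smaller and tighter difference. The gene (ENSG00000136158) lies on the minus strand at chr13:80335976-80341126. Its level was 20.56, 20.2 and 19.83 CPM in shCtrl replicates 1, 2 and 3. In shAC007128.1 replicates 1, 2 and 3 it was 17.4, 15.66 and 15.04 CPM. All shAC007128.1 samples lay below all controls, and the control samples differed little. The mean went from 20.19 ± 0.365 to 16.03 ± 1.224 CPM (SD, n = 3 each), a log2 fold change of -0.33 (SE 0.10, edgeR adjusted p = 0.0366).

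SPRY4, a close relative that also inhibits ERK activation, fell to 73.3% of control. It lies on the minus strand at chr5:142310427-142326455 (ENSG00000187678). The 3 controls measured 14.42, 17.72 and 14.62 CPM and the 3 shAC007128.1 samples 10.6, 13.09 and 10.58 CPM, by replicate 1, 2 and 3. The middle replicate was the highest in each group, and the groups did not overlap. The log2 fold change was -0.45 (SE 0.15, edgeR adjusted p = 0.0428), from 15.59 ± 1.847 to 11.42 ± 1.443 CPM (SD, n = 3 each). The other Sprouty paralog, SPRY3, had 20, 16 and 18 counts in shCtrl and 4, 0 and 0 counts in shAC007128.1 samples, and its test passed narrowly (edgeR adjusted p = 0.0486). At counts this low the size of its fold cannot be fixed.

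The calls of the 3 Sprouty genes were lost when some single libraries were left out, while their directions stayed. SPRY1 no longer passed without shCtrl replicate 1 or 2 or shAC007128.1 replicate 1 or 3 (edgeR adjusted p = 0.116, 0.104, 0.117 and 0.066), SPRY2 without any 1 shCtrl replicate or shAC007128.1 replicate 2 (0.113, 0.0989, 0.0884 and 0.0953), and SPRY4 without any 1 shCtrl replicate or shAC007128.1 replicate 1 or 3 (0.0715, 0.145, 0.0752, 0.104 and 0.0814). With each sample left out in turn, the log2 fold changes were 0.734 to 1.33 for SPRY1, -0.398 to -0.297 for SPRY2 and -0.554 to -0.35 for SPRY4. SPRY1 also did not pass with library size only (edgeR adjusted p = 0.0545), and neither SPRY1 (0.0616) nor SPRY4 (0.0575) passed with no filter. The direction of each was the same in all 15 alternatives.

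Within the SPRED genes, SPRED1 and SPRED2 rose and SPRED3 fell. SPRED1 is the member mutated in Legius syndrome and recruits neurofibromin to RAS at the membrane. Its gene (ENSG00000166068) lies on the plus strand at chr15:38252836-38357249. Controls measured 38.6, 34.61 and 35.24 CPM and shAC007128.1 samples 51.3, 53.49 and 64.1 CPM, by replicate 1, 2 and 3. Every shAC007128.1 sample was above every control, with replicate 3 the highest. The mean rose from 36.15 ± 2.143 to 56.3 ± 6.845 CPM (SD, n = 3 each), a log2 fold change of 0.64 (SE 0.11, edgeR adjusted p = 0.00323).

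SPRED2, which inhibits ERK activation in the same manner, rose by a small amount. The gene (ENSG00000198369) is on the minus strand at chr2:65310851-65432637. Its 3 controls lay within a narrow band, at 56.15, 54.4 and 54.38 CPM. The shAC007128.1 samples were at 64.16, 67.54 and 65.63 CPM, all higher. The log2 fold change was 0.26 (SE 0.07, edgeR adjusted p = 0.0237), from 54.97 ± 1.015 to 65.78 ± 1.693 CPM (SD, n = 3 each). The test no longer passed without shCtrl replicate 1, 2 or 3 or shAC007128.1 replicate 2 (edgeR adjusted p = 0.0711, 0.102, 0.0907 and 0.0743), nor with DESeq2 (adjusted p = 0.093), library size only (edgeR adjusted p = 0.0758) or no filter (0.0913).

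SPRED3, the SPRED protein that lacks a working KIT-binding domain and is the weakest inhibitor of the family, went the other way. It lies on the plus strand at chr19:38388421-38399587 (ENSG00000188766), and the CIC octamer and AP-1 letters printed above come from the window before one of its transcript starts. Its level was 20.93, 22.85 and 22.07 CPM in the 3 controls. It was 10.21, 9.94 and 10.13 CPM in the 3 shAC007128.1 samples. Samples within a group nearly coincided, and the gap between the groups was many times their spread. SPRED3 fell from 21.95 ± 0.968 to 10.09 ± 0.139 CPM (SD, n = 3 each), with a log2 fold change of -1.12 (SE 0.10, edgeR adjusted p = 0.000193). It passed in all 15 alternatives, as did SPRED1.

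**Figure D2:**
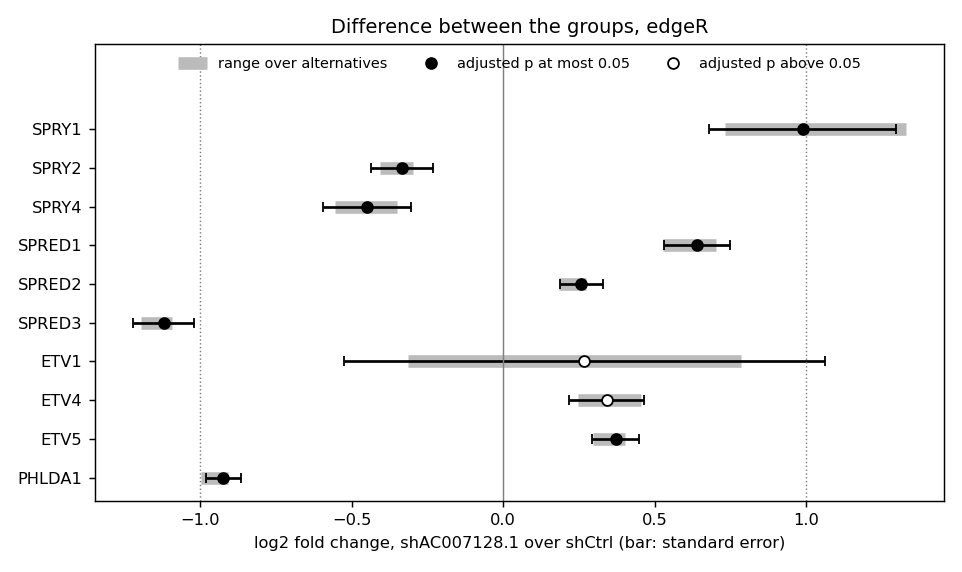
Log2 fold change of each gene, shAC007128.1 over shCtrl, with its standard error (black bars), filled where the edgeR adjusted p is at most 0.05, and the range over the alternatives in grey. Dotted lines mark a fold of 2: SPRED3 (-1.12) lies past the line, SPRY1 (0.99) and PHLDA1 (-0.92) lie just inside it, and the range of ETV1 crosses 0.

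Of the ETS factor genes, ETV5 rose, ETV4 was higher without passing, and ETV1 was barely expressed. ETV5 binds GGAA-centred sites and is a long-standing FGF target gene. It lies on the minus strand at chr3:186046314-186110318 (ENSG00000244405) and shares 164 of its 5773 exonic bases with DGKG. The controls measured 49.11, 46.27 and 45.83 CPM and the shAC007128.1 samples 63.44, 58.46 and 60.78 CPM, by replicate 1, 2 and 3. No shAC007128.1 sample reached down to the controls. The log2 fold change was 0.37 (SE 0.08, edgeR adjusted p = 0.00771), from 47.07 ± 1.78 to 60.89 ± 2.491 CPM (SD, n = 3 each), and it passed in all 15 alternatives.

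ETV4, also known as PEA3, is on the minus strand at chr17:43527844-43579620 (ENSG00000175832) and shares 68 of 3515 exonic bases with DHX8 on the opposite strand. Its controls measured 38.35, 38.39 and 37.44 CPM. Its shAC007128.1 samples measured 54.22, 50.88 and 39.69 CPM, so that replicate 3 lay close to the controls and apart from the other shAC007128.1 samples. With means of 38.06 ± 0.538 and 48.26 ± 7.612 CPM (SD, n = 3 each), the log2 fold change was 0.34 (SE 0.12, edgeR adjusted p = 0.0624). Without shAC007128.1 replicate 3 it was 0.46 and passed (edgeR adjusted p = 0.00248).

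ETV1, which is best known as an oncogenic ETS factor in prostate and gastrointestinal stromal tumors, stood at 40, 47 and 17 counts in the controls and at 39, 50 and 4 counts in the shAC007128.1 samples. The gene (ENSG00000006468) is on the minus strand at chr7:13891229-13991425, and the CIC octamer printed above precedes one of its transcript starts. The groups overlapped (two-sided exact permutation p = 1), and replicate 3 was the lowest in both. The log2 fold change of 0.27 had an SE of 0.79 (edgeR adjusted p = 0.813), so a difference was not detected. Counts were low and also spread widely within each group, and which of these limited the result was not tested.

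PHLDA1 had the smallest p of the 10 genes. It lies on the minus strand at chr12:76025447-76031776 (ENSG00000139289). The controls measured 489.8, 497.8 and 492.7 CPM and the shAC007128.1 samples 255.7, 255.7 and 269 CPM, by replicate 1, 2 and 3. Both groups were tight and far apart. PHLDA1 fell from 493.4 ± 4.039 to 260.1 ± 7.67 CPM (SD, n = 3 each), a log2 fold change of -0.92 (SE 0.06, edgeR adjusted p = 4.89e-05), with 33426 to 40043 counts per control and 14046 to 15635 per shAC007128.1 sample. It passed in all 15 alternatives. The gene shares 553 of 5913 exonic bases with the antisense PHLDA1-AS1, which averaged 0.3871 CPM in shCtrl and 0.06979 CPM in shAC007128.1 samples, far below PHLDA1. Across the 6 samples, the genes of mean log2 CPM of at least 1 whose log2 CPM followed PHLDA1 most closely were EGFR (Pearson's r = 0.9999), CDCP1 (0.9998) and GID8 (0.9997). The 6 samples share the 2 groups, so these values describe the step between groups more than the variation within them.

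Levels were compared between genes per kilobase of exon (RPKM from the scaled counts). In shCtrl the order by RPKM was PHLDA1 (83.5 ± 0.68), ETV4 (10.8 ± 0.15), SPRED2 (9.99 ± 0.19), ETV5 (8.15 ± 0.31), SPRY2 (6.29 ± 0.11), SPRED1 (4.67 ± 0.28), SPRED3 (3.74 ± 0.17), SPRY4 (2.38 ± 0.28), SPRY1 (1.81 ± 0.69) and ETV1 (0.048 ± 0.019; SD, n = 3 each). Among neighbours in this order, only SPRY4 and SPRY1 overlapped between samples. In shAC007128.1 samples PHLDA1 stayed first at 43.99 ± 1.3 RPKM and ETV1 last at 0.058 ± 0.046 RPKM. There SPRED1 (7.26 ± 0.88 RPKM) came before SPRY2 (4.99 ± 0.38 RPKM), and SPRY1 (3.59 ± 1.02 RPKM) before SPRY4 (1.74 ± 0.22 RPKM) and SPRED3 (1.72 ± 0.02 RPKM). The pairs ETV4 and SPRED2, SPRY2 and SPRY1, and SPRY4 and SPRED3 overlapped in that group.

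The sum of each class and its make-up are given as a description, a view chosen after the values were seen. The summed RPKM of SPRY1, SPRY2 and SPRY4 was 10.2 to 10.98 in shCtrl and 9.5 to 11.77 in shAC007128.1 samples, with overlap. Within that sum SPRY1 made up 12.1 to 23.5% in shCtrl and 29.1 to 40.3% in shAC007128.1 samples, while SPRY2 made up 56.2 to 62.7% and 46.0 to 50.3%. The SPRED sum was 18.19 to 18.75 RPKM in shCtrl and 20.02 to 21.92 RPKM in shAC007128.1 samples. The share of SPRED3 in it was 20.37 ± 1.23% (SD, n = 3) and then 8.23 ± 0.42%, and that of SPRED1 24.5 to 26.6% and then 33.1 to 37.7%. For the ETS genes the sum was 18.61 to 19.47 RPKM and 21.83 to 26.49 RPKM, with ETV4 at 56.9 ± 0.79% and 56.17 ± 3.87% of it and ETV5 at 42.83 ± 0.78% and 43.57 ± 4.02% (SD, n = 3 each), so there the sums did not overlap between the groups and the shares did.

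**Figure D3:**
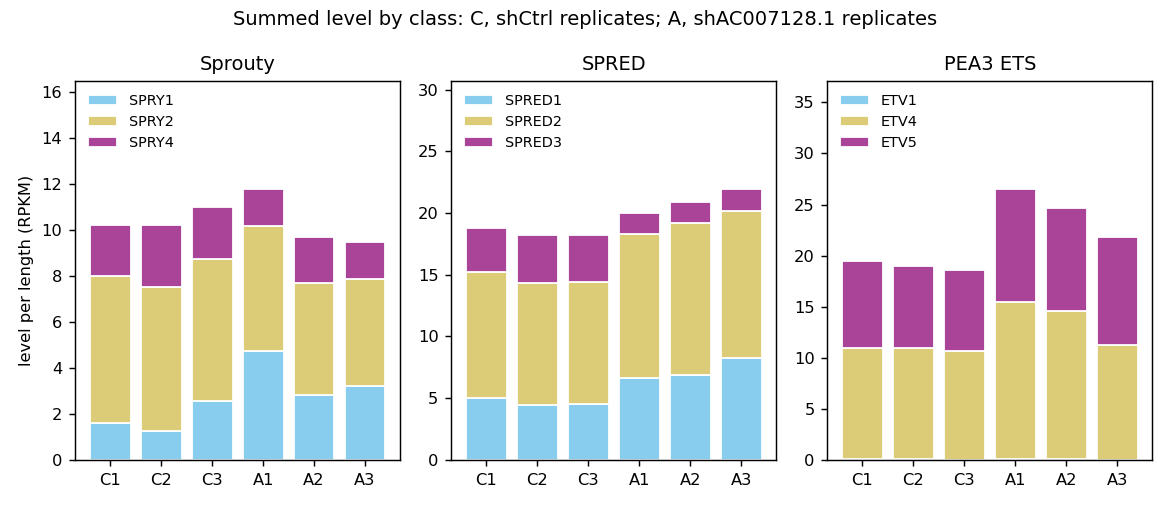
Summed level per length (RPKM) of the Sprouty, SPRED and PEA3 ETS genes in each sample, stacked by gene, with C for shCtrl and A for shAC007128.1 replicates. The Sprouty sums overlap between the groups, at 9.5 to 11.77 RPKM in shAC007128.1 samples, and the SPRED3 segment is the smaller in every shAC007128.1 sample.

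Genes of the pathway around the 10 genes were read against the 19.8% of all genes that passed lower and the 21.0% that passed higher. Of 29 genes from receptor to ERK, 4 passed lower and 13 higher (8 without shCtrl replicate 3), and 12 did not pass, with a median log2 fold change of 0.157. EGFR, the main receptor of squamous cells, fell from 1624 to 623.9 CPM (log2 fold change -1.38, edgeR adjusted p = 1.6e-05). NRAS rose from 90.01 to 224.8 CPM (1.32, adjusted p = 0.000153), the docking protein gene GAB1 from 20.58 to 43.14 CPM (1.07, adjusted p = 0.000564) and FGFR3 from 5.547 to 20.25 CPM (1.87, adjusted p = 0.000807). Of 24 other ERK-responsive genes, 11 passed lower (7 without shCtrl replicate 3) and 1 higher (2 without shAC007128.1 replicate 2 or 3) and 12 did not pass, with a median of -0.379. Here PHLDA1, SPRY2, SPRY4 and SPRED3 had the direction of the immediate early gene FOS (189.2 to 44.16 CPM, log2 fold change -2.10), of EGR1 (385.9 to 91.7 CPM, -2.07) and of the uridine phosphorylase gene UPP1 (569.3 to 169.5 CPM, -1.75), each with an edgeR adjusted p of 1.6e-05. MAFF (-1.54) and EGR3 (-1.56) also fell (edgeR adjusted p = 0.0111 and 0.0127). PLAUR, the urokinase receptor gene, rose with a log2 fold change of 1.11 (edgeR adjusted p = 0.00165), the direction of SPRY1, SPRED1, SPRED2 and ETV5. These matches go by sign alone, which any gene that fell or rose would share, and a link was not tested.

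Among 12 genes for partners of these proteins, 3 passed lower and 3 higher, with a median of 0.056. DET1, part of the ubiquitin ligase that removes PEA3-type ETS proteins, fell from 4.273 to 0.7206 CPM (log2 fold change -2.56, edgeR adjusted p = 0.0102). DET1 shares 2464 of 6859 exonic bases with ENSG00000173867 on the same strand, and how shared reads were counted is not given. ATXN1 and ATXN1L, whose products work with the repressor CIC, rose with log2 fold changes of 0.64 and 0.40 (edgeR adjusted p = 0.00109 and 0.00669). CIC itself (log2 fold change -0.14, edgeR adjusted p = 0.224) and COP1, another gene of this list (0.12, adjusted p = 0.517), did not pass. Of 25 other ETS family genes 18 were tested, and 4 passed lower and 4 higher with a median of -0.061. The genes that fell included EHF, an epithelial ETS factor, from 16.04 to 4.305 CPM (-1.90, edgeR adjusted p = 7.9e-05), and ETV7 (-1.998, adjusted p = 0.00976). ETS1 (-0.76, edgeR adjusted p = 0.000321) and ELF4 (-0.50, adjusted p = 0.00167) fell by less than 2-fold. The 4 that passed higher were ELF1 (log2 fold change 0.512), ELF2 (0.753), ELF3 (0.649) and ELK1 (0.645). ETV5 thus rose in a family whose other members went both ways.

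**Figure D4:**
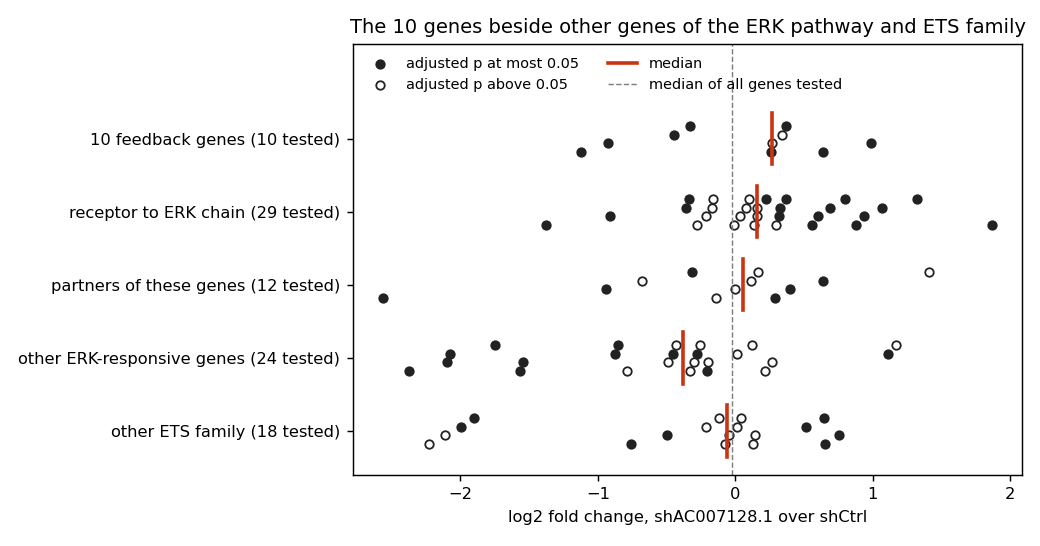
Log2 fold change, shAC007128.1 over shCtrl, of each tested gene in 5 lists, filled where the edgeR adjusted p is at most 0.05, with the list median (red) and the median of all genes tested (dashed, -0.024). The 10 feedback genes spread from -1.12 to 0.99 around a median of 0.264, and the median of the other ERK-responsive genes is -0.379.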

How the data were processed

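RNA sequencing of KYSE150 cells, 3 shCtrl and 3 shAC007128.1 samples, was re-analysed from the deposited table. The authors' methods describe poly-A paired-end TruSeq libraries, removal of rRNA, adapter and low-quality reads, mapping to hg38 with TopHat and FPKM values from Cufflinks; the submitters' processing notes name CASAVA 1.8 and TopHat2 2.0.6. The deposited table gives each Ensembl gene an estimated count, which the authors wrote as a whole number without normalization. Low values pile up at multiples of 4. The counting program, annotation release and use of strand are not given in the sources used here. Samples were grouped by their titles, and 0 sample columns were left unmapped. GENCODE v44 (hg38) supplied positions, exon lengths and overlaps and held 60357 of the 67140 identifiers (89.9%).

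Counts were filtered with filterByExpr, scaled by TMM (factors 0.967 to 1.042) and tested with edgeR 4.0.16 (glmQLFit, glmQLFTest) in R 4.3.3, with Benjamini-Hochberg adjustment over all 19254 genes tested. Standard errors are the log2 fold change over the root of F. Levels correlated with PHLDA1 use log2 CPM with a prior count of 2. At these depths 3 counts equal 0.0382 to 0.0538 CPM, which covers counting error only. The alternatives were DESeq2 1.42.0, limma-voom (limma 3.58.1), library size only, DESeq2 size factors, a filter of 10 counts or more in each sample, no filter, the replicate block, counts divided by 4, thinned libraries, each sample left out in turn (with the filter rerun) and a fold limit of 1.5. On simulated counts for this comparison over 19254 genes, edgeR called 59 of 62 genes changed by a log2 of 2 and 55 of 57 changed by 1.5 at 2 CPM or more, 15 of 81 changed genes under 2 CPM, and 9 of 19054 unchanged genes. The simulation left 19054 of 19254 genes unchanged, with changes planted evenly up and down. Of all genes in the data 40.8% passed, and more were called lower (10.1%) than higher (5.57%). The count of false calls may therefore not hold for the data. The pass mark of this simulation was reset after a first one, on recovery of all changed genes, was missed. The alternatives for single genes were limited to genes named here after those of all listed genes had been seen.

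The genes and lists were chosen with earlier results of these data known. The genes named are the 10 feedback genes, SPRY3 and AC007128.1, the called genes of each list (at most 6 by p, and the 3 with the smallest p where fewer than 3 were called), and the 3 genes most like PHLDA1. CBL, GRB2, CIC, COP1, VWF, PHLDA1-AS1, AREG, HBEGF, ELF1, ELF2, ELF3 and ELK1 were named after their values were seen.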

Additional observations from a re-analysis of the deposited data

How the results depend on the processing

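Over the 10 genes, 148 alternative values were computed: 118 kept direction and side of the threshold, 25 no longer passed, 1 newly passed and 4 changed sign, all 4 of ETV1. PHLDA1, SPRED1, SPRED3 and ETV5 passed in 15 of 15 alternatives. SPRY1 did not pass with library size only (log2 fold change 0.91, edgeR adjusted p = 0.0545) or no filter (0.95, 0.0616), nor SPRY4 with no filter (-0.493, 0.0575), nor SPRED2 with DESeq2 (0.233, DESeq2 adjusted p = 0.093), library size only (0.185, edgeR adjusted p = 0.0758) or no filter (0.216, 0.0913). ETV1 was -0.314 with limma-voom, and -0.027 without shCtrl replicate 3 and -0.278 without shAC007128.1 replicate 2. Leaving out each sample gave 0.734 to 1.33 for SPRY1, -0.398 to -0.297 for SPRY2, -0.554 to -0.35 for SPRY4, 0.527 to 0.701 for SPRED1, 0.243 to 0.275 for SPRED2, -1.157 to -1.094 for SPRED3, -0.278 to 0.786 for ETV1, 0.248 to 0.457 for ETV4, 0.34 to 0.403 for ETV5, -0.957 to -0.908 for PHLDA1 and -1.289 to -0.513 for AC007128.1. The cause of these changes was not tested, though each left-out sample leaves fewer samples. The replicate numbers did not pair the samples (same-numbered deviations correlated at 0.031, -0.025 and -0.03, and 2 of 6 samples correlated best with their own number). With the replicate number as a block, SPRY2 (-0.336, edgeR adjusted p = 0.0733) and SPRED2 (0.259, 0.0771) did not pass and ETV1 was -0.107, while no other of the 10 changed its side. With the block 3524 genes passed higher and 3256 lower, against 4041 and 3820 without it.

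Of the 10 genes, 2 passed higher with library size only or no filter (18% and 9.23% of all genes). SPRY1 was called higher with limma-voom or the replicate block (5.64% and 5.07% of all genes), and with a fold limit of 1.5, 2 of the 10 were called lower and 2 higher (15.3% and 13.3% of all genes). At that limit the receptor to ERK list had 2 called lower and 8 higher, and the partners 2 lower and 1 higher. The other ETS genes had 3 called higher, while EHF, ETV7 and ETS1 were called lower. AREG and HBEGF joined the 6 other ERK-responsive genes called lower at a fold of 2, and PLAUR was called higher at both limits. Library size only gave 2 partners called lower (11.1% of all genes), limma-voom and the block 1 partner called higher, and DESeq2 and no filter 1 other ETS gene called higher (3.08% and 2.6% of all genes). Leaving out each sample gave 2 to 3 passing lower in the 10 genes, 2 to 4 passing higher in the 10 genes, 0 to 1 called higher in the 10 genes, 8 to 13 passing higher in the receptor to ERK list, 1 to 2 called lower in the partners, 0 to 1 called higher in the partners, 7 to 13 passing lower in the other ERK-responsive genes, 1 to 2 passing higher in the other ERK-responsive genes and 1 to 2 called higher in the other ERK-responsive genes, where 14.3 to 20.4% of all genes passed lower and 15.6 to 21.1% higher. In the fits with a sample left out, 8.02 to 9.93% of all genes were called lower and 4.76 to 5.24% higher. The median log2 fold change of all genes tested was -0.134 with DESeq2 and -0.149 with no filter, where 34721 and 34756 genes entered. Among 21 other named genes 301 of 312 values kept direction and side, 8 no longer passed (7 of SPRY3), 3 newly passed (CBL) and 0 changed sign; EGR3 did not pass without shCtrl replicate 3 (-1.362, edgeR adjusted p = 0.0513). AC007128.1 ranged from -1.289 to -0.513 and passed in 0 of 15. ETV1, SPRY3 and AC007128.1 stood at 50 counts or fewer in most samples, so their values are uncertain, and 1 hairpin limits all.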

Other observations

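The genes of a pair of proteins that bind Sprouty, chosen after their values were seen, each had a sample that stood apart within a group, GRB2 in both groups. CBL measured 146.7, 34.93 and 31.22 CPM in shCtrl replicates 1, 2 and 3 and 172.8, 201 and 192.5 CPM in shAC007128.1 replicates 1, 2 and 3. GRB2 measured 171.1, 61.21 and 150.6 CPM and 169.3, 59.44 and 163.3 CPM in the same order. In CBL shCtrl replicate 1 lay near the shAC007128.1 samples, and in GRB2 replicate 2 was the lowest in both groups. The log2 fold change of CBL was 1.41 (SE 0.57, edgeR adjusted p = 0.086) and did not pass, while it passed in 3 of 15 alternatives. Without shCtrl replicate 1 it was 2.51 (edgeR adjusted p = 0.000322).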
